A study of Mus musculus with 12 samples.

Results

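The matrix metalloproteinases and their inhibitors were followed in ear skin of C57BL/6 mice after intradermal injection of IL-17A, IL-36γ or both. The 10 genes were the 7 metalloproteinase genes Mmp2, Mmp3, Mmp9, Mmp10, Mmp12, Mmp13 and Mmp14 and the 3 inhibitor genes Timp1, Timp2 and Timp3, each matched by its symbol to 1 Ensembl row of the count table, which held 50684 genes. All 10 had enough counts to be tested, among 19408 genes. Female mice, 8 weeks old, received either PBS, 1 µg of IL-17A, 1 µg of IL-36γ, or 1 µg of each in 5 µl per ear. The methods of the study describe consecutive treatment, and ears were taken after 4 days. Of 5 samples made per group, 3 were picked at random for RNA-seq, so that 12 libraries in 4 groups were compared, each from an individual mouse. The labels name no genetic alteration, and the PBS group shared the injection itself.

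Matrix metalloproteinases are zinc-dependent proteases that are made as inactive precursors and cut collagen, gelatin, elastin and other proteins of the extracellular matrix, as well as cytokines and cell surface proteins. Tissue inhibitors of metalloproteinases (TIMPs) bind to the active site of the processed enzymes. The balance of both sets tissue remodelling in skin, where fibroblasts, keratinocytes and immigrating leukocytes each make different members. Transcript levels were measured here, not protein or activity.

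Total counts per library ranged from 25293468 to 34759293. Keratinocyte genes were abundant in each library (summed level of 8 genes 17370 to 39330 CPM, counts scaled to library depth with the trimmed mean of M-values), as were fibroblast genes (6813 to 13860 CPM over 10 genes). Cartilage (139.4 to 426.4 CPM) and skeletal muscle genes (269.2 to 3690 CPM) were measured as well, as the ear pinna holds both. In PBS replicate 1 the muscle genes summed to 437.9 CPM, the lowest of its group, so the tests of the 10 genes and of the pathway lists were also run without each library in turn. In bulk tissue, fewer cells of a type and less RNA per cell cannot be told apart.

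Injection of both cytokines changed 6 of the 10 genes against PBS: Timp1 and Mmp9 rose, while Timp2, Timp3, Mmp2 and Mmp10 fell. A gene was called changed at an adjusted p below 0.05 (edgeR quasi-likelihood test, Benjamini-Hochberg over all genes tested). Of all genes, 44.6% were called in this comparison (23.7% raised and 20.9% lowered), so 6 of 10 has to be read against this background. IL-36γ alone raised Timp1 and lowered Mmp2 (2 of 10, where 28.4% of all genes were called, 17.3% raised and 11.1% lowered). IL-17A alone raised Timp1 (1 of 10, where 10.9% of all genes were called, 7.44% raised and 3.49% lowered). It lowered none of the 10 in edgeR or DESeq2, while 4 had an unadjusted p below 0.05. A change of over 2-fold in addition was met by 3 of the 10 with both cytokines (13.4% of all genes) and by 1 with IL-36γ (7.1%). Over the 10 genes, the median log2 fold change came to 0.27 for IL-17A, to -0.20 for IL-36γ, and to -0.28 for the combination, beside 0.04, -0.02 and -0.03 over all genes tested. With both cytokines, the same 6 genes were those whose libraries lay wholly above or below PBS, as did 52.5% of all genes. These comparisons share the 3 PBS libraries. The number of all genes called moved with single libraries: for IL-17A it was 21 without PBS replicate 3, 81 without IL-17A replicate 1 and 4571 without PBS replicate 1, beside 2120 with all libraries.

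**Figure D1:**
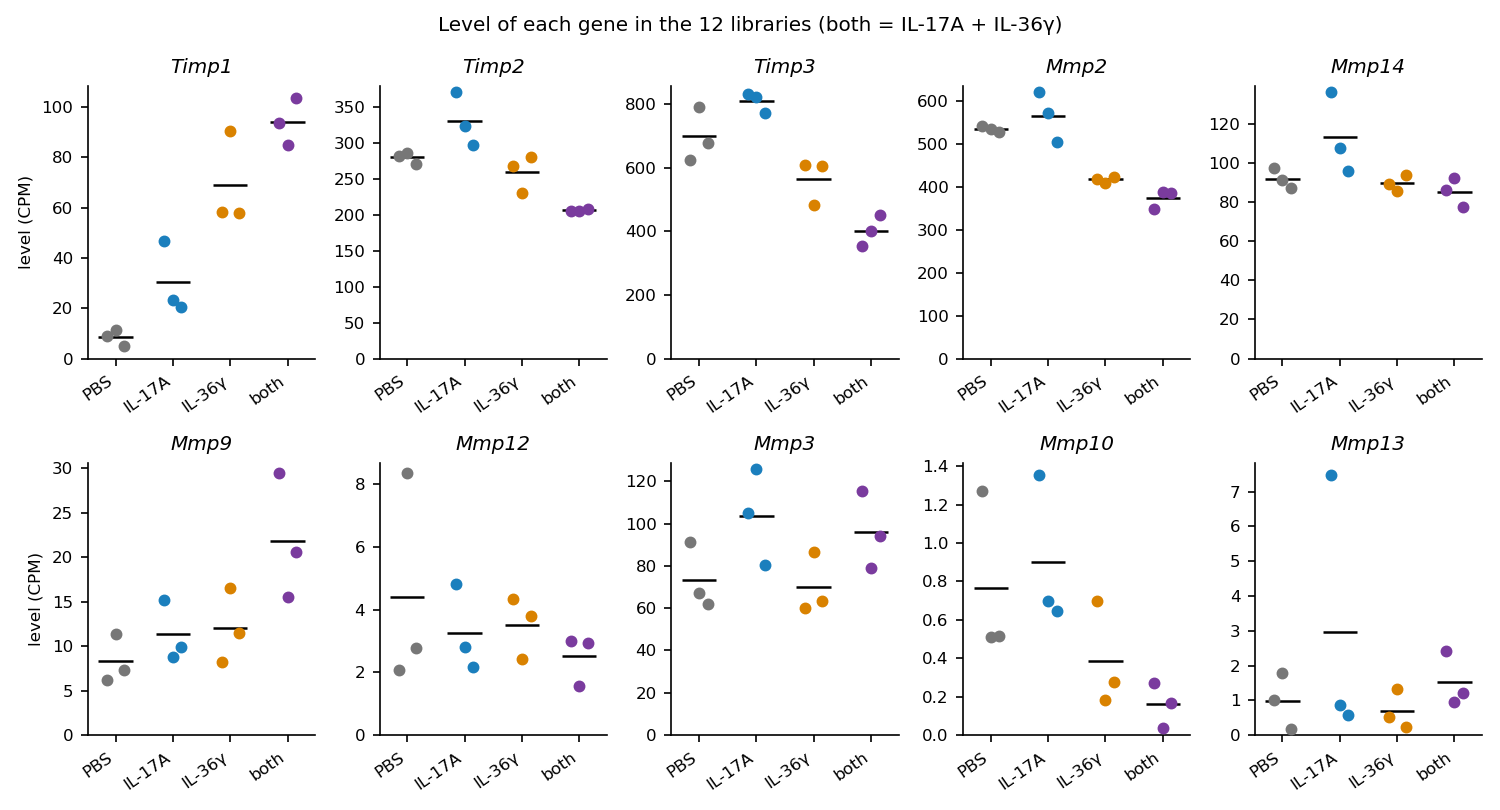
Level of each gene in CPM on linear axes that start at 0, 1 panel per gene. Each point is 1 library, the line is the mean of 3, and "both" is IL-17A + IL-36γ. Timp1 rose from a mean of 8.49 CPM in PBS to 93.9 CPM after both cytokines, whereas Timp2, Timp3 and Mmp2 were lowest after both.

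Timp1 (ENSMUSG00000001131) encodes the secreted inhibitor that responds to cytokines and also binds the precursor of Mmp9. The gene lies on chromosome X (GRCm38 chrX:20870166-20874735, plus strand) within the span of Syn1, which runs on the other strand. In the PBS libraries Timp1 was at 9.13, 11.5 and 4.82 CPM. With IL-17A it reached 46.9, 23.3 and 20.5 CPM. With IL-36γ it reached 58.2, 90.5 and 57.8 CPM, and with the combination 93.7, 84.7 and 103.4 CPM. Every injected library lay above every PBS library, every library after IL-36γ lay above those after IL-17A, and the 2 groups with IL-36γ overlapped. Against PBS, Timp1 rose 3.55-fold after IL-17A (log2 1.83, SE 0.34, adjusted p = 0.0165), 8.09-fold after IL-36γ (log2 3.02, SE 0.35, adjusted p = 0.000167) and 11-fold after both (log2 3.46, SE 0.36, adjusted p = 3.55e-05). The IL-17A call did not survive leaving out PBS replicate 3 or IL-17A replicate 1 (adjusted p up to 0.0911), nor a fit of these libraries alone (adjusted p = 0.0749). The calls in the groups with IL-36γ held without any 1 library. Syn1 itself had 2 to 11 counts per library and shares no exon bases with Timp1.

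Timp2 (ENSMUSG00000017466, chr11:118301069-118355740, minus strand), which inhibits metalloproteinases and at the cell surface takes part in the activation of pro-Mmp2 by Mmp14, moved the other way. Its level was 281.2, 286.2 and 270.8 CPM in PBS, 370.4, 323.4 and 296.8 CPM with IL-17A, 267.9, 230.6 and 279.8 CPM with IL-36γ, and 205.3, 205.2 and 207.7 CPM after both. The libraries with both cytokines lay below all 9 others, and those with IL-17A alone above all others. Against PBS, the fall after both was -0.44 on the log2 scale (SE 0.09, adjusted p = 0.00218). The differences after IL-17A (0.24, SE 0.09, adjusted p = 0.0953) and after IL-36γ (-0.11, SE 0.09, adjusted p = 0.387) did not pass.

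Timp3 (ENSMUSG00000020044) is the inhibitor that stays bound to the extracellular matrix and also acts on ADAM proteases. It is on chromosome 10 (chr10:86300372-86349506, plus strand). Timp3 was at 625.0, 791.8 and 678.0 CPM in PBS, at 832.9, 820.8 and 773.4 CPM with IL-17A, at 609.2, 481.4 and 605.8 CPM with IL-36γ, and at 353.7, 400.8 and 450.0 CPM after both. The libraries with both lay below all others. The fall against PBS was 1.74-fold (log2 -0.80, SE 0.12, adjusted p = 0.000319), and the difference was 0.21 (SE 0.12, adjusted p = 0.25) after IL-17A and -0.30 (SE 0.12, adjusted p = 0.0761) after IL-36γ. Timp3 shares 1733 exon bases with Syn3 on the other strand, and the strand setting of the counting is not given in the sources used here. Syn3 had 38 to 73 counts per library, beside 9064 to 27965 for Timp3. The falls of Timp2 and Timp3 held without any 1 library, and neither exceeded 2-fold against PBS.

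**Figure D2:**
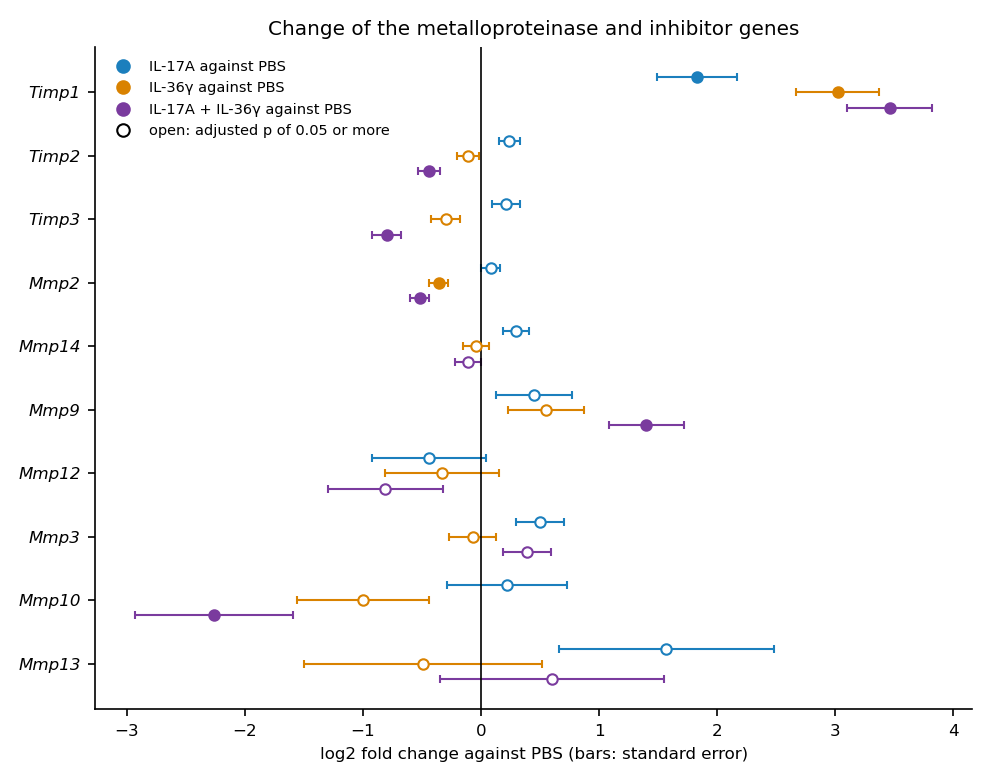
Log2 fold change against PBS (x axis) for each gene (y axis) after IL-17A, IL-36γ and both, with the standard error as bars. Filled points passed the test. Timp1 lies to the right in all 3 comparisons, and after both cytokines Timp2, Timp3, Mmp2 and Mmp10 lie to the left.

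Mmp2 and Mmp14 form an axis in connective tissue, in which the membrane-bound Mmp14 processes the precursor of the gelatinase Mmp2. Mmp2 (ENSMUSG00000031740, chr8:92827291-92853420, plus strand) was at 540.8, 535.2 and 526.6 CPM in PBS, at 621.1, 571.0 and 503.9 CPM with IL-17A, at 418.7, 409.8 and 423.1 CPM with IL-36γ, and at 347.3, 387.4 and 385.0 CPM after both. The libraries of both groups with IL-36γ lay below those of PBS and IL-17A. Mmp2 fell 1.28-fold after IL-36γ (log2 -0.36, SE 0.08, adjusted p = 0.00762) and 1.43-fold after both (log2 -0.52, SE 0.08, adjusted p = 0.00041), both also without any 1 library, whereas IL-17A gave 0.08 (SE 0.08, adjusted p = 0.521). Mmp14 (ENSMUSG00000000957, chr14:54431612-54445364, plus strand) was at 97.1, 91.0 and 87.3 CPM in PBS, 136.3, 107.7 and 95.7 CPM with IL-17A, 89.2, 85.4 and 93.7 CPM with IL-36γ, and 86.2, 92.2 and 77.2 CPM after both. No difference of Mmp14 against PBS passed (0.30 after IL-17A with adjusted p = 0.0953, -0.04 after IL-36γ and -0.11 after both). For the combination the 95% interval of -0.35 to 0.14 leaves out a change of Mmp14 as large as the estimated fall of Mmp2 (-0.52). The interval of Mmp2 itself was -0.69 to -0.34, and the difference between these genes was not tested.

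Mmp9 (ENSMUSG00000017737, chr2:164940780-164955850, plus strand), the second gelatinase, is stored in granules of neutrophils and is also made by macrophages and keratinocytes. It was at 6.20, 11.35 and 7.27 CPM in PBS, 15.2, 8.81 and 9.90 CPM with IL-17A, 8.25, 16.5 and 11.4 CPM with IL-36γ, and 29.5, 15.5 and 20.5 CPM after both. The libraries with both cytokines lay above PBS, while those with 1 cytokine overlapped with PBS. Mmp9 rose 2.63-fold after both (log2 1.40, SE 0.32, adjusted p = 0.00416), also without any 1 library. After IL-17A the value was 0.45 (SE 0.32, adjusted p = 0.364) and after IL-36γ 0.55 (SE 0.32, adjusted p = 0.214).

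The remaining genes lie in a cluster on chromosome 9, in the order Mmp13, Mmp12, Mmp3 and Mmp10 between positions 7272514 and 7510240. Mmp3 and Mmp10 are the stromelysins, which cut many matrix proteins and activate other metalloproteinase precursors. Mmp3, made mainly by fibroblasts, was at 91.0, 67.2 and 62.2 CPM in PBS, 105.0, 125.6 and 80.6 CPM with IL-17A, 60.0, 86.6 and 63.4 CPM with IL-36γ, and 115.6, 78.8 and 94.1 CPM after both. All groups overlapped with PBS. Mmp3 did not pass (0.50, SE 0.20, adjusted p = 0.12 after IL-17A, -0.07 after IL-36γ, and 0.39, SE 0.20, adjusted p = 0.139 after both), although DESeq2 called it after IL-17A (adjusted p = 0.0326) and after both (adjusted p = 0.0454).

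Mmp10, a stromelysin of keratinocytes at wound edges, was scarce. It had 46, 18 and 17 counts in PBS (1.27, 0.510 and 0.515 CPM), 36, 21 and 16 counts with IL-17A, 21, 6 and 8 counts with IL-36γ, and 7, 1 and 5 counts with the combination (0.273, 0.0366 and 0.167 CPM). The libraries with both lay below those of PBS and of IL-17A. Mmp10 fell 4.80-fold against PBS (log2 -2.26, SE 0.67, adjusted p = 0.0166), with an interval of -3.72 to -0.80 that reflects the few counts. This call did not hold when PBS replicate 1 or IL-17A + IL-36γ replicate 2 was left out (adjusted p up to 0.0609). After IL-36γ the value was -1.0 (SE 0.56, adjusted p = 0.196). Mmp3 and Mmp10 share 62 of their windows of 76 bases, the read length, which is 3.59% of Mmp3 and 3.76% of Mmp10.

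Mmp13, the main collagenase of the mouse, and Mmp12, the elastase of macrophages, did not pass in any comparison. Mmp13 was at 0.997, 1.78 and 0.182 CPM in PBS, 7.48, 0.864 and 0.563 CPM with IL-17A, 0.532, 1.31 and 0.241 CPM with IL-36γ, and 2.42, 0.951 and 1.2 CPM after both. IL-17A replicate 1 alone made the mean of its group the highest, and without it the log2 fold change went from 1.57 to -0.49. Mmp12 was at 2.08, 8.35 and 2.79 CPM in PBS, 4.81, 2.79 and 2.17 CPM with IL-17A, 4.33, 2.44 and 3.79 CPM with IL-36γ, and 3.00, 1.57 and 2.94 CPM after both. PBS replicate 2 was the highest of the 12 libraries, and without it the log2 fold change after both went from -0.81 to 0.05. Mmp12 shares 157 exon bases with Mmp1b on the other strand, and the strand setting of the counting is not given. Mmp1b had 5 to 69 counts per library, beside 43 to 295 for Mmp12. After both cytokines 9 of 10 macrophage markers rose (23.7% of all genes did). For Mmp12 the interval after both was -1.88 to 0.25, which leaves out a rise of more than 0.25, but the value moved with PBS replicate 2. Whether Mmp12 differed from these markers was not tested.

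Mmp3, Mmp10 and Mmp13 share the same pair of motifs before their starts. To show this, 200 bases before the start of Mmp3, Mmp10 and Mmp13 are given with those of Timp1, the gene with the largest rise (RefSeq promoter table, GRCm38.p6, plus strand, no annotated exon). Capitals mark the AP-1 motif TGANTCA and the TATA box TATAAA, searched on both strands.
Mmp3 (chr9:7445622-7445821): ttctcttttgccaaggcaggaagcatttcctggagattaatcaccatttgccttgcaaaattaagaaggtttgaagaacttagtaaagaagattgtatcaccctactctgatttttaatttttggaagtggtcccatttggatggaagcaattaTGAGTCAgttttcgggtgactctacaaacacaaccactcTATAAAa
Mmp10 (chr9:7502142-7502341): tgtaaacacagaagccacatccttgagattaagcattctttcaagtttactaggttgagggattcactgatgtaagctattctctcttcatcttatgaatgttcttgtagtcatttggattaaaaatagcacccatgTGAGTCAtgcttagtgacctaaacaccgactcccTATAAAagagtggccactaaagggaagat
Mmp13 (chr9:7272314-7272513): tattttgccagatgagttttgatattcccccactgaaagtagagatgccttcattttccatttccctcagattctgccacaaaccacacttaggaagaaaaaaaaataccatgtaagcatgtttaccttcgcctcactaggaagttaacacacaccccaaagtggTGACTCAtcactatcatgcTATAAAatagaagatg
Timp1 (chrX:20869966-20870165): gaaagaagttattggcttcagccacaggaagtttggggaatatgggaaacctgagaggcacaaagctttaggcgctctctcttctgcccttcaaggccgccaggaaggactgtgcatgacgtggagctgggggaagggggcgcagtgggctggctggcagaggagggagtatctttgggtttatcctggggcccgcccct

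In Mmp3 the AP-1 motif begins 46 bases before the start, in Mmp10 63 bases and in Mmp13 35 bases, with a TATA box after it in each. Of 32851 promoter windows of 300 bases (250 before the start and 50 after it), 7.81% held TGANTCA and 13.6% held TATAAA. The table held windows for 8 of the 10 genes. The second of the windows of Mmp12 held both motifs, while those of Timp1, Timp2, Timp3 and Mmp14 held neither, nor the kappa B motif, which 8.46% of all windows held. The first window of Mmp12 held a kappa B match 129 bases before the start. No match says only that these letters are not in this window. Whether the motifs bear on the changes of these genes was not tested. Of the 9 genes of AP-1 subunits, the transcription factor named after the motif, 3 rose after both cytokines and none fell (23.7% and 20.9% of all genes did): Batf (log2 2.01, SE 0.33, adjusted p = 0.000546), Fos (1.80, SE 0.52, adjusted p = 0.0143) and Junb (0.93, SE 0.16, adjusted p = 0.000618). The call of Fos was lost without IL-17A + IL-36γ replicate 3 (adjusted p = 0.0573). IL-36γ alone raised 6 of the 9 (17.3% of all genes), and 3 of these calls held without any 1 library. IL-17A alone raised 3 (7.44% of all genes), each lost in some such fit. Fos was at 24.5 ± 4.1 CPM in PBS, 175 ± 103 CPM with IL-17A, 152 ± 11 CPM with IL-36γ and 85.2 ± 50.3 CPM after both (mean and SD).

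The direct comparison of the injected groups asked what each cytokine added to the other. Adding IL-36γ to IL-17A changed 7 of the 10 genes (32.7% of all genes were called, 15.1% raised and 17.7% lowered), of which 3 also passed 2-fold (8.95% of all genes). Timp1 rose by log2 1.64 (SE 0.33, adjusted p = 0.00328) and Mmp9 by 0.95 (SE 0.32, adjusted p = 0.0377). Mmp10 fell by 2.48 (SE 0.67, adjusted p = 0.015), Timp3 by 1.01 (SE 0.12, adjusted p = 0.000271), Timp2 by 0.68 (SE 0.09, adjusted p = 0.000424), Mmp2 by 0.60 (SE 0.08, adjusted p = 0.000468) and Mmp14 by 0.41 (SE 0.11, adjusted p = 0.0164). The Mmp9 call was lost without IL-17A replicate 2 or 3 or IL-17A + IL-36γ replicate 1 or 3 (adjusted p up to 0.16). The Mmp10 call was lost without IL-17A replicate 1 or IL-17A + IL-36γ replicate 2 (up to 0.058), and that of Mmp14 without IL-17A replicate 1 or IL-17A + IL-36γ replicate 3 (up to 0.0777).

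Adding IL-17A to IL-36γ called none of the 10 genes in edgeR, as it called 0.0206% of all genes, while 4 had an unadjusted p below 0.05. DESeq2 called Timp3 (adjusted p = 0.00117) and Timp2 (adjusted p = 0.00322). Timp3 was at -0.49 (SE 0.12, unadjusted p = 0.00147, adjusted p = 0.121) and Timp2 at -0.33 (SE 0.09, unadjusted p = 0.00313, adjusted p = 0.147), and for both the libraries with both cytokines lay below those with IL-36γ. Mmp9 was at 0.85 (SE 0.31, adjusted p = 0.24) and Mmp3 at 0.46 (SE 0.20, adjusted p = 0.315). For Timp1 the difference was 0.45 with an interval of -0.24 to 1.14.

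IL-36γ and IL-17A injected alone differed in 4 of the 10 genes (7.98% of all genes were called, 4.37% raised and 3.61% lowered), and 1 of them by over 2-fold (1.61% of all genes). Timp1 was higher after IL-36γ (1.19, SE 0.33, adjusted p = 0.0458), whereas Timp3 (-0.52, SE 0.12, adjusted p = 0.0252), Mmp2 (-0.44, SE 0.08, adjusted p = 0.0112) and Timp2 (-0.35, SE 0.09, adjusted p = 0.0381) were lower. These calls were unstable. Without 1 library they were lost for Timp1 and Timp2 in 8 of 12 fits each, for Timp3 without IL-17A replicate 1 or 2 or IL-36γ replicate 2, and for Mmp2 without IL-17A replicate 2 or IL-36γ replicate 2.

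Whether IL-17A acted differently in the presence of IL-36γ was tested as an interaction. No gene of the 10 passed in edgeR (0.551% of all genes did), 4 had an unadjusted p below 0.05, and DESeq2 called Timp2 (adjusted p = 0.000931) and Timp3 (adjusted p = 0.00286). The interaction was -0.57 for Timp2 (SE 0.13, unadjusted p = 0.000727, adjusted p = 0.0602), -0.71 for Timp3 (SE 0.17, unadjusted p = 0.00134, adjusted p = 0.0669), -0.37 for Mmp14 (SE 0.16, adjusted p = 0.197) and -1.38 for Timp1 (SE 0.46, adjusted p = 0.12). On the linear scale, the level of Timp1 after both exceeded the sum of the single effects by 3.35 CPM with an SE of 14.8, which is no difference beyond the spread. For Timp2 the level was below that sum by an excess of -104 CPM (SE 26.5) and for Timp3 by -275 CPM (SE 72.7). For Timp2, libraries with IL-17A lay above PBS, whereas libraries with both cytokines lay below those with IL-36γ.

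Levels of different genes were set side by side per length, as CPM per kb of annotated exon. In PBS the order was Mmp2 (158.5), Timp3 (85.7), Timp2 (71.7), Mmp3 (40.8), Mmp14 (15.4), Timp1 (9.57) and Mmp9 (2.34), each apart from the next, followed by Mmp12 (0.609), Mmp10 (0.445) and Mmp13 (0.369), which overlapped. After both cytokines Timp1 (105.8) overlapped with Mmp2 (110.7) at the top, Mmp3 (53.4), Timp2 (52.9) and Timp3 (49.3) overlapped below, and Mmp14 (14.3) and Mmp9 (6.17) followed. Timp1 thus went from rank 6 in PBS to rank 5 after IL-17A (34.0) and to rank 2 in both groups with IL-36γ (77.5 after IL-36γ alone). Its libraries overlapped those of Mmp3 with IL-17A, and those of Timp3 and Timp2 with IL-36γ alone.

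**Figure D3:**
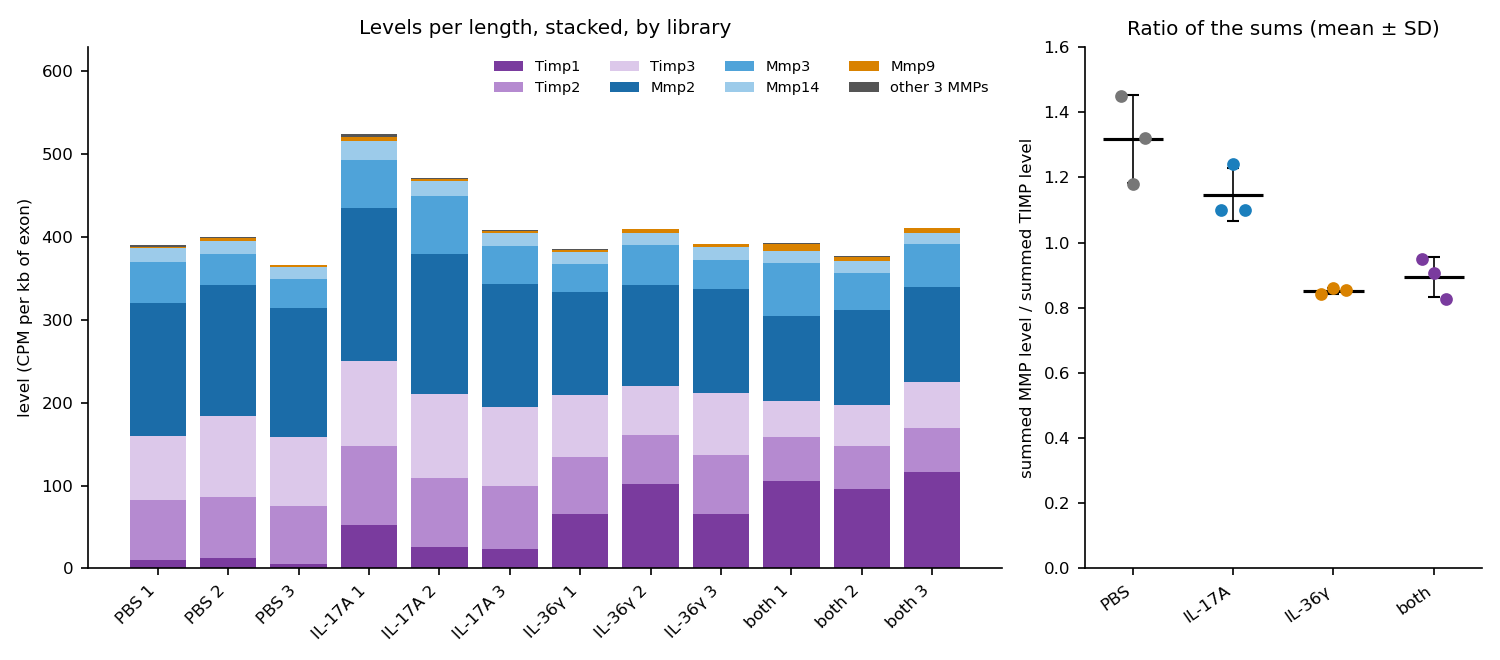
Left, level of each gene in CPM per kb of exon, stacked for each of the 12 libraries, with Mmp10, Mmp12 and Mmp13 joined. Right, the summed level of the 7 metalloproteinase genes over that of the 3 inhibitor genes per library, with mean and SD of 3. Timp1 held 2.45% of the stack in PBS and 26.8% after both, and the ratio was below 1 in all libraries with IL-36γ, an order that is lost without division by length.

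Timp1 took 2.45% ± 0.895 (SD, n = 3) of the summed level per kb in PBS, 7.11% ± 2.59 with IL-17A, 19.5% ± 4.68 with IL-36γ, and 26.8% ± 1.5 with the combination. The share of Mmp2 was 41.2% in PBS and 28.2% after both, that of Timp3 22.2% and 12.5%, and that of Timp2 18.6% and 13.5%. The 7 metalloproteinase genes over the 3 inhibitor genes gave a ratio of 1.32 ± 0.135 in PBS, 1.15 ± 0.0808 with IL-17A, 0.852 ± 0.00961 with IL-36γ, and 0.895 ± 0.0621 with the combination. This order depends on the division by length, because Timp1 is short (888 exon bases) and Timp3 long (8144). Without it the ratio was 0.728 ± 0.0758 in PBS, 0.683 ± 0.0412, 0.668 ± 0.0712 and, after both, 0.831 ± 0.0656, so that the combination was the highest group, above every library with either cytokine alone and overlapping PBS. The share of Timp1 went up either way, from 0.495% to 7.32% without division by length.

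Of the 16 other metalloproteinase genes and Timp4, 12 were tested, and after both cytokines 3 rose and 4 fell (23.7% and 20.9% of all genes did). Mmp1a, Mmp7, Mmp20, Mmp21 and Mmp24 were too low to be tested. Mmp8, the collagenase of neutrophil granules, was at 0.138, 0.453 and 0.121 CPM in PBS, 1.95, 0.532 and 0.965 CPM with IL-17A, 2.13, 2.86 and 3.24 CPM with IL-36γ, and 9.21, 3.99 and 6.09 CPM after both. Its libraries did not overlap with PBS in any comparison, and it rose by log2 2.24 (SE 0.60, adjusted p = 0.039), 3.50 (SE 0.55, adjusted p = 0.00103) and 4.72 (SE 0.54, adjusted p = 6.02e-05). The IL-17A call of Mmp8 was lost in 8 of 12 fits without 1 library, those of the other groups in none. Mmp25, a membrane-anchored enzyme of leukocytes, rose by 1.3 after both (SE 0.22, adjusted p = 0.000651), and Mmp19 by 0.68 (SE 0.20, adjusted p = 0.0174). The Mmp19 call was lost without PBS replicate 3 or IL-17A + IL-36γ replicate 3 (adjusted p up to 0.0728). Mmp19 shares 23.1% of its windows with Gm47093 and Tmem198b.

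Timp4, the fourth inhibitor, fell as Timp2 and Timp3 did. It was at 11.8, 22.3 and 17.3 CPM in PBS, 20.4, 14.4 and 10.8 CPM with IL-17A, 8.02, 5.51 and 12.9 CPM with IL-36γ, and 5.07, 3.66 and 4.25 CPM after both. The libraries with both cytokines lay below all others. Timp4 fell by log2 1.99 after both (SE 0.33, adjusted p = 0.000614) and by 0.96 after IL-36γ (SE 0.32, adjusted p = 0.0397). Mmp1b (-1.78, adjusted p = 0.0397, with 5 to 69 counts per library and sharing 12.5% of its windows with Mmp1a and Mmp12), the membrane-type Mmp16 (-0.80, adjusted p = 0.0125) and the epidermal Mmp28 (-0.49, adjusted p = 0.00553) fell as well. The calls of Timp4 and Mmp28 for the combination held without any 1 library. That of Mmp16 was lost without PBS replicate 3 or IL-17A + IL-36γ replicate 1 (adjusted p up to 0.0599), that of Mmp1b in 5 of 12 fits (up to 0.236), and that of Timp4 for IL-36γ in 5 of 12 (up to 0.15).

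**Figure D4:**
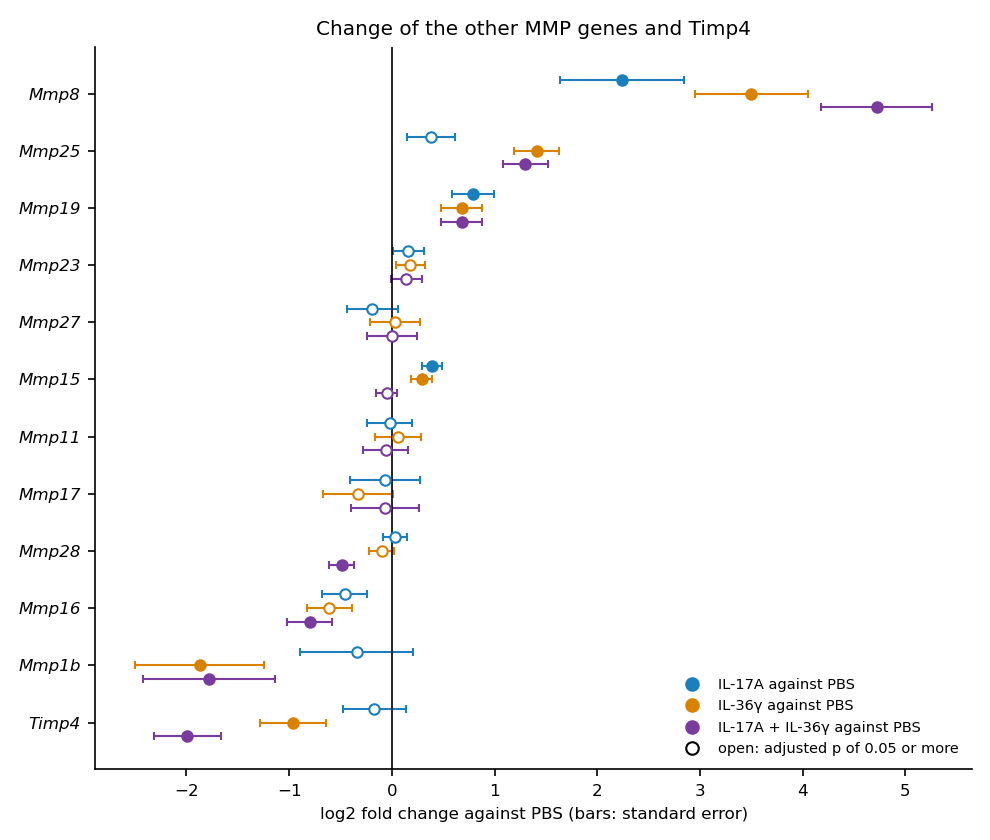
Log2 fold change against PBS (x axis) with the standard error as bars for the 11 other metalloproteinase genes tested and Timp4, after IL-17A, IL-36γ and both. Filled points passed the test. Mmp8 lies farthest to the right (4.72 after both) and Timp4 farthest to the left (-1.99).

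Of 22 genes that activate metalloproteinase precursors or control them, 19 were tested, and after both cytokines 9 rose and 3 fell (23.7% and 20.9% of all genes did). Lcn2, whose product forms a complex with Mmp9, rose most (log2 5.4, SE 0.24, adjusted p = 7.08e-07), from a mean of 2.51 CPM to 106 CPM. Plaur, the receptor of urokinase (1.03, adjusted p = 0.00322), and Cd44, which can hold Mmp9 at the cell surface (0.97, adjusted p = 0.000273), also rose. Reck, a membrane-anchored inhibitor of metalloproteinases, fell from 82.8 ± 6.99 CPM to 42.3 ± 4.13 CPM (log2 -0.97, SE 0.12, adjusted p = 0.000105). A2m, a protease trap of plasma, fell by 1.5 (adjusted p = 0.000264) and Ctsg, cathepsin G, by 1.11 (adjusted p = 0.0328). With IL-17A 6 of these 19 genes rose and none fell (7.44% and 3.49% of all genes), and 11 had an unadjusted p below 0.05. Of these 6 calls only that of Lcn2 held without any 1 library. With IL-36γ 8 rose and 2 fell (17.3% and 11.1% of all genes), and 8 of these 10 calls held without any 1 library. For the combination 9 of the 12 calls held without any 1 library, that of Ctsg not (adjusted p up to 0.156, without PBS replicate 1 or IL-17A + IL-36γ replicate 2 or 3).

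A list of 16 genes from the related ADAM and ADAMTS families, including the ADAMTS-like Adamtsl4, which lacks a protease domain, was tested in full. With IL-17A 6 rose (7.44% of all genes did), and each of these 6 calls was lost in some fit without 1 library. With IL-36γ 8 rose and 2 fell (17.3% and 11.1% of all genes), and with the combination 7 rose and 2 fell (23.7% and 20.9%). All 9 calls for the combination held without any 1 library, as did 5 of the 10 for IL-36γ. The shedding enzymes Adam12 (1.69, SE 0.23, adjusted p = 0.000174), Adam8 (1.45, SE 0.18, adjusted p = 0.000115) and Adam10 (0.51, SE 0.07, adjusted p = 0.000131) rose after both, as did Adamts15 (0.78, SE 0.08, adjusted p = 3.51e-05). Adamts12 (-0.76, adjusted p = 0.000839) and Adamtsl4 (-0.61, adjusted p = 0.00854) fell.

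Of 15 matrix proteins that metalloproteinases cut, 2 rose and 6 fell after both cytokines (23.7% and 20.9% of all genes did). Tnc, tenascin C of remodelling tissue (2.24, adjusted p = 0.000162), and Vcan, versican (0.56, adjusted p = 0.0226), rose. Col7a1, the anchoring fibril collagen (-1.19, adjusted p = 3.94e-06), Eln, elastin (-1.06, adjusted p = 0.00144), Fn1, fibronectin (-0.71, adjusted p = 0.00735), and Col1a2, a chain of collagen I (-0.61, adjusted p = 0.0278), fell. Col7a1 fell after IL-17A (-0.51, adjusted p = 0.0101) and after IL-36γ (-1.08, adjusted p = 1.5e-05) too. The calls of Col1a2 and Vcan for the combination were each lost in 3 of 12 fits that left out 1 library. Col1a2 needed PBS replicate 2 and IL-17A + IL-36γ replicates 1 and 3, and Vcan PBS replicate 3 and IL-17A + IL-36γ replicates 2 and 3. The IL-17A call of Col7a1 was lost without PBS replicate 3 (adjusted p = 0.0627).

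Markers of several cell types moved with these genes. The 11 neutrophil markers, Mmp8 among them, summed to 13.8 to 90.2 CPM in PBS, 379.3 to 870 CPM with IL-17A, 2278 to 4831 CPM with IL-36γ, and 7607 to 10040 CPM after both, most of it from S100a8 and S100a9, which keratinocytes make as well. After both cytokines 8 of the 9 tested rose (23.7% of all genes did), and Camp and Ngp were too low to test. The neutrophil gene Ly6g had no count in PBS, and the granule gene Ltf did not pass (-0.62, adjusted p = 0.445). The 10 macrophage markers summed to 840.7 to 980.1 CPM in PBS and 1880 to 2049 CPM after both. Their part in the rise of Mmp9, Mmp8 and Timp1 was not tested.

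**Figure D5:**
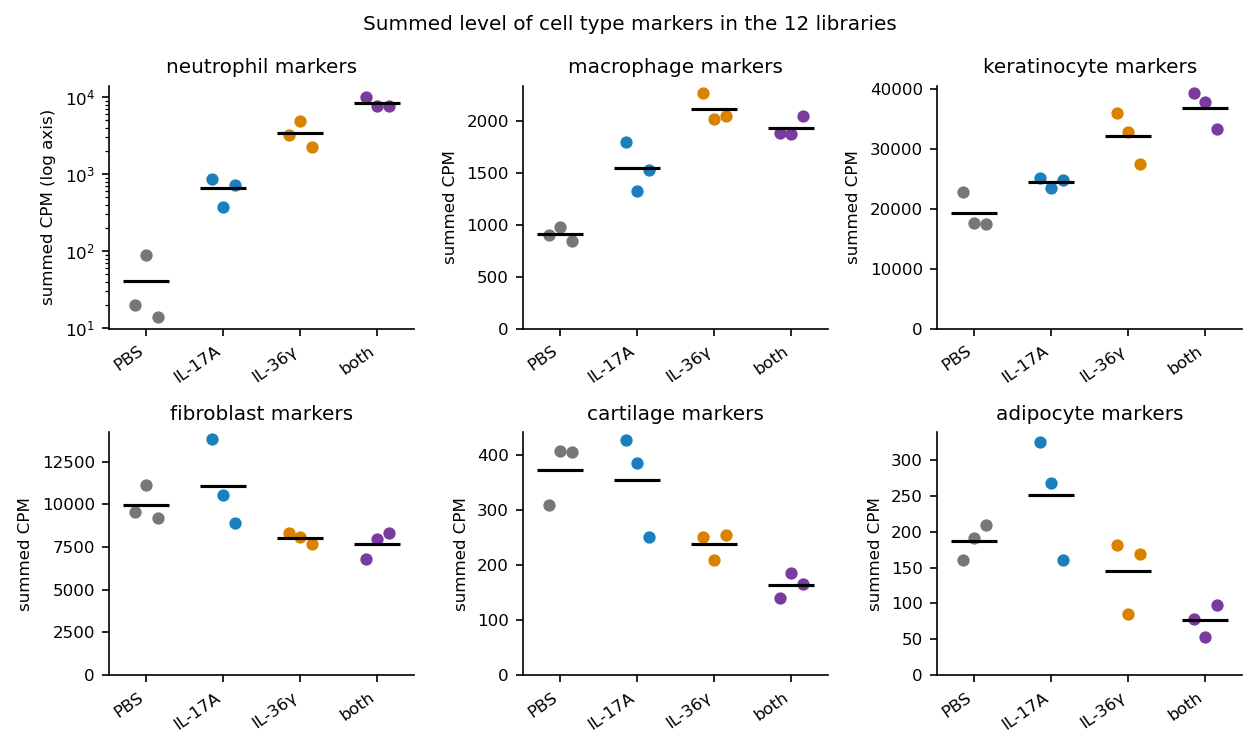
Summed CPM of the markers of 6 cell types in each of the 12 libraries, with the mean of 3 as a line. The neutrophil panel has a log axis, the others start at 0. Neutrophil, macrophage and keratinocyte sums were higher after both cytokines than in PBS, and those of fibroblast, cartilage and adipocyte markers were lower.

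Some markers of connective tissue were lower in the libraries where Mmp2, Timp2 and Timp3 fell. After both cytokines 4 of 10 fibroblast markers fell and 1 rose (20.9% and 23.7% over all genes), and their sum was 6813 to 8341 CPM, beside 9174 to 11110 CPM in PBS. All 8 tested cartilage markers fell (sum 139.4 to 184.5 CPM, beside 309.2 to 406.4 CPM in PBS), as did all 6 adipocyte markers (52.6 to 98.3 CPM, beside 160.1 to 208.7 CPM), 5 of 7 endothelial markers and 3 of 10 skeletal muscle markers. Keratinocyte markers summed to 33280 to 39330 CPM, beside 17370 to 22790 CPM in PBS, with 4 of 8 raised and 1 lowered. The fibroblast markers ranged from -1.31 for Dpt (adjusted p = 0.000706) to 0.45 for Fbln1 (adjusted p = 0.00769), with Col1a2, Pdgfrb and Dcn also lowered and the other 5 not passing. The part of these shifts in the falls of Mmp2, Timp2, Timp3 and Timp4 was not tested. T cell (33.4 to 46.1 CPM), mast cell (217 to 327.6 CPM) and sebaceous or hair follicle markers had 3, 2 and 0 raised and 2, 2 and 1 lowered of 8 each.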

How the data were processed

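The authors sequenced total RNA of 12 ear samples (stranded, ribosomal RNA depleted, paired reads of 76 bases), aligned the reads to mm10 with STAR 2.5.2b and counted them per gene with featureCounts (Subread 1.5.1). The strand setting and annotation release are not given in the sources used here. The deposited table holds raw counts. The deposited comparison tables hold the authors' fold changes and p-values, which were not used. Those tables served to pair gene IDs with symbols (47020 of 50684 genes).

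Counts were filtered (filterByExpr, minimum count 10), scaled by TMM and fitted over all 12 libraries with edgeR 4.0.16 (R 4.3.3) using the quasi-likelihood test. SE is the log2 fold change over the square root of F, and intervals are 95%. The fit was tested on simulated data with the same spread for every gene and 200 genes changed by log2 2 up or down. It recovered 200 of them, with 9 false calls. This check does not cover smaller changes, scarce genes or the uneven spread of the real libraries. Alternatives were DESeq2 1.42.0, other scalings and filters, pairwise fits, a 2-fold threshold, a replicate block and leaving out each library. Exon lengths came from GENCODE (GRCm38). All 10 members were named, and from each list at most 6 genes that passed after both cytokines, by absolute log2 fold change. Markers are given as counts and sums. The members and lists were chosen with earlier results of these data known. The spread between libraries and counting noise limit low genes such as Mmp10.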

Additional observations from a re-analysis of the deposited data

Results flagged for a closer look

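The response to IL-17A differed with IL-36γ present, by the interaction test, for 6 genes of the lists, all close to the threshold (edgeR adjusted p from 0.0437 to 0.0498, where 0.551% of all genes passed). For Mmp15, a membrane-type metalloproteinase, it was -0.73 on the log2 scale (SE 0.14). Mmp15 held 13.7 ± 1.70 CPM in PBS, 18.0 ± 0.668 CPM with IL-17A, 16.8 ± 1.21 CPM with IL-36γ, and 13.3 ± 0.859 CPM with the combination (SD, n = 3). Each cytokine alone raised it (0.39, adjusted p = 0.036, and 0.29, adjusted p = 0.0492), calls that were lost in 8 and 10 of 12 fits without 1 library. The interaction was -1.04 for Plat, -1.62 for Lcn2, -0.58 for Adamts15, -3.67 for Fos and -1.26 for Junb. For Lcn2 the sign depends on the scale. Its mean was 2.51 CPM in PBS, 17 CPM with IL-17A, 48.5 CPM with IL-36γ and 106 CPM after both. On the linear scale the level after both was thus above the sum of the single effects, which was not tested. None of the 6 calls was stable: without 1 library they were lost in 8 (Junb), 9 (Plat, Lcn2, Fos), 10 (Mmp15) and 11 (Adamts15) of 12 fits, with adjusted p up to 0.156 for Mmp15. Over all genes the test called 107, between 1 (without IL-36γ replicate 1) and 1534 (without PBS replicate 1) when 1 library was left out, and 3 when scaled by library size only.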

How the results depend on the processing

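Of the 10 genes, the number called after IL-17A against PBS was 2 with DESeq2 and 0 with only those groups in the fit, and 0 to 2 without each library in turn. After IL-36γ it was 1 with the 2-fold threshold, 4 with library size only, and 2 to 3 without each library. After both it was 3 with the 2-fold threshold and 5 to 6 without each library. Both against IL-17A gave 3 with the 2-fold threshold and 5 to 7, both against IL-36γ 2 with DESeq2, 1 with no filter and 0 to 1, and IL-36γ against IL-17A 1 with the 2-fold threshold and 0 to 4, where DESeq2 added Mmp14 (adjusted p = 0.015) and the fit of those groups alone lost Timp2 (0.0839). The interaction gave 2 with DESeq2, 2 with no filter, 1 with the replicate block and 0 to 2. The cause was not tested, apart from the 2-fold threshold, which by construction removes smaller changes. Same-numbered libraries correlated at -0.199 to 0.352 (median 0.097, 9 of 18 above 0.1) and others at -0.503 to 0.364 (median -0.05, 9 of 36 above 0.1). Not every same-numbered pair was above 0.1, and the numbers were not taken to pair the samples. That rule cannot show that they share no effect, so the block is given beside it. Under the block Timp2 passed the interaction test (adjusted p = 0.0389), Mmp10 passed for IL-36γ against PBS (0.0247) and Mmp9 missed for both against IL-17A (0.0507). Without division by length the ratio of metalloproteinase to inhibitor levels was 0.728 in PBS, 0.683 with IL-17A, 0.668 with IL-36γ, and 0.831 with the combination.

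Only values that had not passed changed sign. With library size only, Mmp2 after IL-17A was -0.09. Without each library in turn, values for IL-17A spanned -0.02 to 0.16 for Mmp2, -0.23 to 0.81 for Mmp10, -0.85 to 0.42 for Mmp12 and -0.49 to 2.29 for Mmp13. For IL-36γ they spanned -0.25 to 0.12 for Mmp3, -0.67 to 0.53 for Mmp12, -1.35 to 0.24 for Mmp13 and -0.07 to 0.01 for Mmp14, and for the combination -1.15 to 0.05 for Mmp12. DESeq2-type size factors and a minimum of 10 counts in every library, under which Mmp10 and Mmp13 could not be tested, left all other calls as they were. Scaling by library size only moved the median of all genes against PBS to -0.13, -0.16 and -0.17 for IL-17A, IL-36γ and both, and added Timp2 and Timp3 for IL-36γ.

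Over all genes, IL-17A against PBS called 2120 genes, 3290 with DESeq2, 3360 with the block, 20 with only those groups and 21 to 4571 without each library. IL-36γ against IL-17A called 1548, 3523 with DESeq2 and 201 to 2394 without each library. Both against IL-36γ called 4, 1235 with DESeq2, 281 with no filter, and 0 with library size only, the block, the minimum in every library or only those groups, and 0 to 209 without each library. The interaction called 107, 1797 with DESeq2, 883 with the block, 462 with no filter, 38 with DESeq2-type size factors 3 with library size only and 1 to 1534 without each library. IL-36γ against PBS ranged from 2987 to 7332 without each library, both against PBS from 6412 to 9716 and both against IL-17A from 4114 to 7245.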
